A study of Homo sapiens with 2 samples.

Results

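The cells described here were 260 cells of a day 160 library that carried S-phase transcripts and little CRABP1, out of 9972 cells of that library that passed filters (2.61%, 95% exact binomial interval 2.30 to 2.94) and 10496 passing cells in the 2 libraries of the study. A cell was a member when it had 2 or more UMIs (unique molecular identifiers, each standing for 1 captured RNA molecule) of TYMS and 2 or more of PCLAF, no UMI of UBE2C or CDC20, and fewer than 5 UMIs of CRABP1. To pass, a cell needed 1000 detected genes, and mitochondrially encoded genes could take no more than 15% of its UMIs. The members were set against 3 other groups of the same library: 53 S-phase cells chosen by the same rule with 5 or more CRABP1 UMIs, 654 mitotic cells with 2 or more UMIs of both UBE2C and CDC20 and fewer than 5 of CRABP1, and 5371 non-cycling cells with no UMI of MKI67, TOP2A, UBE2C, TYMS or PCLAF. The non-cycling cells were not chosen by CRABP1, and 4283 of them had fewer than 5 CRABP1 UMIs.

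The study profiled astrocyte progenitors differentiated from H7, an established human embryonic stem cell line with no engineered allele named in the labels, at day 160 and at day 220. All cells of both libraries had been exposed to the cytokine LIF and to the growth factors BMP4 and FGF1. Each library combined 3 separately differentiated lines before loading, no label separates them, and the protocol text of the day 220 library names day 160 while its title and time point give day 220. There was 1 library per time point, so no difference below has a replicate check and no test was possible. The intervals given are 95% intervals for counting error only.

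A dividing cell copies its genome once in S phase. In G1, the origin recognition complex, CDC6 and CDT1 load the ring-shaped MCM helicase on replication origins; in S phase, CDC45 and the GINS complex join the helicase, the PCNA clamp holds the polymerases on DNA, and the histone supply rises with the new DNA. E2F transcription factors, released from the RB1 family when cyclin D and cyclin E kinases are active, switch on many of these genes, while mitotic genes peak later under another program. In the developing forebrain, radial glia, which share many markers with astrocyte progenitors, and the DLX-expressing precursors of inhibitory neurons both divide.

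The promoters of 5 genes described below are shown because each holds an E2F-type word, of the type of sequence that the E2F family is known to bind. Each sequence is RefSeq's on GRCh38.p14, runs from 250 bases before the annotated start to 50 after it and is printed 5′ to 3′ on the gene's strand. Capitals mark the words TTTGGCGC or TTTCGCGC, on either strand. They lie at chr17:40287629-40287928 (CDC6, plus strand), chr20:33686336-33686635 (E2F1, minus strand), chr7:100101348-100101647 (MCM7, minus strand), chr2:135876394-135876693 (MCM6, minus strand) and chr6:52284693-52284992 (MCM3, minus strand).
CDC6: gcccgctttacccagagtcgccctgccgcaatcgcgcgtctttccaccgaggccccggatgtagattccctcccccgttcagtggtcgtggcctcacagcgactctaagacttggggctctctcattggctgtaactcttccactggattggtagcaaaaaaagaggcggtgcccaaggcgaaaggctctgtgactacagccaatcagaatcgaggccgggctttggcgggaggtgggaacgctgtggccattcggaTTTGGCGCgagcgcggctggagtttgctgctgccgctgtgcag
E2F1: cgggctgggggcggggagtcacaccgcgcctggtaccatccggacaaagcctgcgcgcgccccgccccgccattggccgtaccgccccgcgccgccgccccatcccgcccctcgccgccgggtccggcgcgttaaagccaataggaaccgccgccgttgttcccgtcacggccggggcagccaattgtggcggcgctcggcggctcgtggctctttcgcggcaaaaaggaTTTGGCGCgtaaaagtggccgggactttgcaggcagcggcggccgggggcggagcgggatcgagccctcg
MCM7: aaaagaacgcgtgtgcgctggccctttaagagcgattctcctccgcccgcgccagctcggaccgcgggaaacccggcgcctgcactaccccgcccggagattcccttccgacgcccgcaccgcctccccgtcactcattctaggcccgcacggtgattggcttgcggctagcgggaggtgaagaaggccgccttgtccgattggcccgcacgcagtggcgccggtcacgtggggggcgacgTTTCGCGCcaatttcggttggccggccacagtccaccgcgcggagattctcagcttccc
MCM6: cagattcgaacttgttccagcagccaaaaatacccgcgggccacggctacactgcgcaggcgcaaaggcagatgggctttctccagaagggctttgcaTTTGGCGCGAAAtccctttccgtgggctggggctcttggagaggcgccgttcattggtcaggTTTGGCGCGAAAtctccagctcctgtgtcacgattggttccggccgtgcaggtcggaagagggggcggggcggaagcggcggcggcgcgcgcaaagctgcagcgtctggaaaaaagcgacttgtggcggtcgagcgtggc
MCM3: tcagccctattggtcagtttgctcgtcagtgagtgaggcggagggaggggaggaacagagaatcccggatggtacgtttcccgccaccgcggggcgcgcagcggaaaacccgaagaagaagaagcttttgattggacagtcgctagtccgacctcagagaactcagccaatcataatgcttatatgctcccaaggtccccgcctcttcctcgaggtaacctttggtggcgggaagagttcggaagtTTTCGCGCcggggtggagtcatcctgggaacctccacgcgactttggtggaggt
The word began 20 bases before the start in E2F1, 9 in MCM7 and 4 in MCM3, and 7 bases after it in CDC6. MCM6 held 4 matches in 2 runs, in each of which TTTGGCGC overlapped GCGCGAAA, the reverse complement of TTTCGCGC. An E2F word was present in 322 of 27326 promoters of the table (1.18%), in 169 of the 7273 promoters matched to genes counted here (2.32%) and in 11 of the 54 promoters matched to 66 listed replication genes (20.4%). Among genes at least 2-fold higher in S-phase than in non-cycling cells, 373 of 464 had a promoter in the table and 43 held the word (11.5%). The word TTTGAA, a core of the cell cycle homology region that mitotic promoters are known for, was present on either strand in 2 of the 54 replication promoters (3.70%), in 30 of the 43 matched to 51 mitotic genes (69.8%) and in 15.4% of all promoters. CCAAT, the word of the factor NF-Y, was present on either strand in 55.6% of the replication, 69.8% of the mitotic and 35.7% of all promoters. In the promoters matched to all genes counted here, TTTGAA was present in 9.14% and CCAAT in 37.7%. CCAAT was present in 49.1% of promoters of genes at least 2-fold higher than in non-cycling cells. For genes at least 2-fold lower its share was 45.8%. These matches are descriptions of letters in a window. CDC45, RRM2, TYMS and PCLAF held neither TTTGGCGC nor TTTCGCGC there, and other E2F-type words were not searched for.

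The members had a median of 10514.5 UMIs per cell (2667 to 93124) and 3375 detected genes, against 11022 UMIs in S-phase cells high in CRABP1, 15597 in mitotic cells and 8856 in non-cycling cells. Mitochondrially encoded genes took a median of 11.7% of the members' UMIs and 12.1% of those of non-cycling cells. Scrublet, which scores barcodes that look like 2 merged cells, marked 16 of the 260 members, 6 of the 53 CRABP1-high cells, 75 of the 654 mitotic cells and 136 of the 5371 non-cycling cells. They were kept here and left out in an alternative. The 2 libraries shared 3 barcodes, of which 2 passed filters.

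By the rule itself, members had a median of 5 TYMS UMIs (2 to 18) and 5 PCLAF UMIs (2 to 24), and 216 of the 260 had no CRABP1 UMI. TYMS makes thymidylate for DNA, and PCLAF binds the PCNA clamp. PCNA, a marker of the label that the rule did not use, had a UMI in 248 of the 260 members, with a median of 5 and a highest count of 17. MKI67 had a UMI in 81 members and TOP2A in 91. At the edge of the rule, the 41 members with exactly 2 TYMS UMIs had 276 CPM of PCNA (UMIs per 1000000 UMIs, summed over the cells), against 156 CPM in 49 cells that missed only by having 1. The 54 members with exactly 2 PCLAF UMIs had 255 CPM of PCNA, against 214 CPM in 56 cells that missed only by having 1. The 7 members with 3 or 4 CRABP1 UMIs had 296 CPM, against 534 CPM in 8 cells that missed only by having 5 to 9. The rule also turned away 130 cells only for a single UBE2C UMI; they had 505 CPM of PCNA and 32.3 CPM of CCNB1, the cyclin of entry into mitosis.

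Most genes of DNA replication were higher in the members than in non-cycling cells. Of 64 listed replication genes outside the rule, 59 reached 10 CPM in at least 1 of these groups and 53 of those were at least 2-fold higher, and no gene was lower by that much; their log2 ratios had a median of 2.73. Across all 8979 genes counted the same way, 464 were at least 2-fold higher (5.17%) and 126 at least 2-fold lower (1.40%), together 6.57%, and the median was -0.01. The ratio throughout is log2 of CPM + 1 over CPM + 1, which understates differences of low genes. The groups were chosen by genes of the same pathway in the same cells, so these values describe the members and support nothing further.

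Origin licensing genes summed to 1409 CPM in the members and 205 CPM in non-cycling cells, and 11 of 13 counted were at least 2-fold higher. The 6 genes of the MCM ring, MCM2 to MCM7, were among them. A member had a median of 3 MCM3 UMIs (quartiles 1 and 5, highest 13), and 229 of 260 had at least 1. MCM3 had 223 CPM (208 to 238) in the members and 21.8 CPM in non-cycling cells, a 10.2-fold ratio (9.33 to 11.1). MCM5 had 118 CPM in the members and 9.18 CPM in non-cycling cells, a 12.8-fold ratio (11.3 to 14.6). MCM6 had 129 CPM in the members and 11.8 CPM in non-cycling cells, and MCM7 had 270.3 CPM in the members and 25.4 CPM in non-cycling cells. CDC6 and CDT1, which help to load the ring, had larger ratios. CDC6 had 55.7 CPM in the members and 0.94 CPM in non-cycling cells, a 59.2-fold ratio (43.8 to 81.4), and CDT1 had 105 CPM in the members and 4.6 CPM in non-cycling cells. ORC1 and ORC6, subunits of the origin recognition complex, had log2 ratios of 3.31 and 3.02, while ORC4 was at -0.11 and ORC3 at 0.60. GMNN, which encodes the CDT1 inhibitor geminin, had 136 CPM in the members and 13.9 CPM in non-cycling cells.

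All 10 counted genes of helicase activation and origin firing were at least 2-fold higher. CDC45 had 57.3 CPM in the members and 0.80 CPM in non-cycling cells, a 71.5-fold ratio (51.8 to 100.4). MCM10, which activates the helicase, had 68.1 CPM in the members and 0.44 CPM in non-cycling cells. GINS2 had 182 CPM in the members and 10.9 CPM in non-cycling cells. The smallest ratio of this list was that of TOPBP1, at 1.21, followed by DBF4, the activator of the CDC7 kinase, at 1.56.

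At the clamp and the fork, 18 of 19 counted genes were at least 2-fold higher. PCNA had 384 CPM (365 to 404) in the members and 45.9 CPM in non-cycling cells, an 8.37-fold ratio (7.85 to 8.92). CLSPN, which encodes the checkpoint adaptor claspin, had 111 CPM in the members and 3.17 CPM in non-cycling cells. FEN1 and LIG1, which process and join Okazaki fragments, had log2 ratios of 3.49 and 3.36. RFC1, the large subunit of the clamp loader, stayed under 2-fold at 0.88, while the smaller subunits RFC2 to RFC5 lay between 1.97 and 2.97. Of 12 polymerase subunits, 9 were at least 2-fold higher. POLA2 of the primase complex and POLE2 of the leading-strand polymerase, at 3.32 and 2.79, led the list, and the accessory subunits POLD2, POLD4 and POLE4 were under 2-fold, at 0.77, -0.08 and 0.75.

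**Figure D1:**
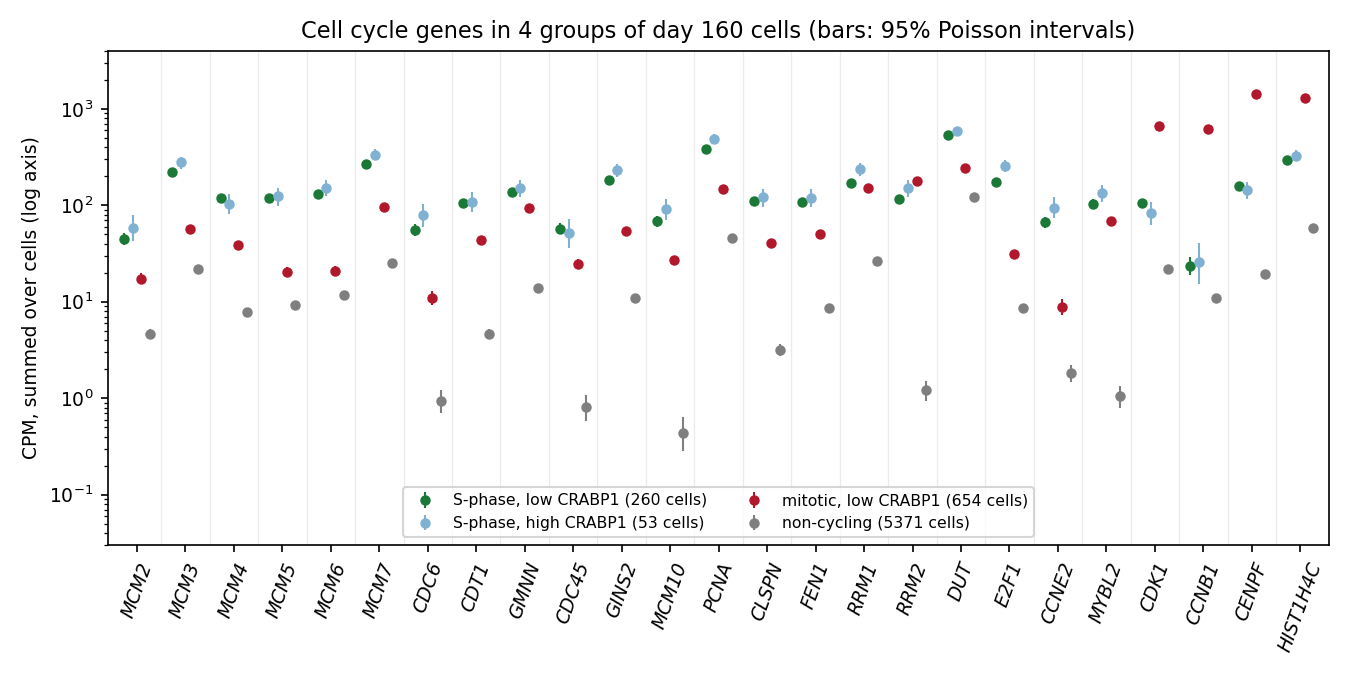
Level of 25 cell cycle genes in CPM on a log axis, summed over the cells of each group, with 95% Poisson intervals. From left to right in each column stand S-phase cells low in CRABP1, S-phase cells high in CRABP1, mitotic cells and non-cycling cells. MCM, CDC6, E2F1 and CCNE2 are highest in both S-phase groups, and CDK1, CCNB1, CENPF and HIST1H4C in mitotic cells.

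The supply of nucleotides showed a smaller difference. Of 14 counted genes, 11 were at least 2-fold higher, and 1.42 was their median on the log2 scale. RRM2, the regulated subunit of ribonucleotide reductase, had the highest ratio of all genes of 50 CPM or more outside the rule, with 116 CPM in the members and 1.2 CPM in non-cycling cells, a 96.4-fold ratio (74.7 to 126). Only 150 of the 260 members had an RRM2 UMI. DUT, which clears dUTP, had a UMI in 252 members and 537 CPM, against 122 CPM in non-cycling cells. The purine synthesis genes GART and IMPDH2 had log2 ratios of 0.64 and 0.40.

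Of 18 counted regulators of the step from G1 to S, 13 were at least 2-fold higher and none at least 2-fold lower. E2F1 had 174 CPM in the members and 8.64 CPM in non-cycling cells, a 20.1-fold ratio (17.9 to 22.6), and E2F2 and E2F3 had log2 ratios of 4.01 and 1.56. CCNE2, 1 of the cyclin E genes that drive CDK2, had 66.6 CPM in the members and 1.81 CPM in non-cycling cells. CCNE1 had a log2 ratio of 3.00 and CDK2 of 2.28. MYBL2, a factor that carries the program from S phase toward mitosis, had 104 CPM in the members and 1.05 CPM in non-cycling cells. CCND2, CDK4 and CDK6, which act earlier in G1, were under 2-fold, at 0.63, 0.83 and 0.80, as were RB1 at 0.49 and RBL2 at -0.18; RBL1, another gene of that family, was at 2.24. The cyclin D gene CCND3 was at 1.02. CCND1, another of them, had 55.5 CPM in the members and 8.05 CPM in non-cycling cells, but its UMIs lay in 22 cells. Of 7 counted inhibitors of the cyclin-dependent kinases, CDKN3 was at least 2-fold higher at 2.38 and CDKN1C, which encodes p57, at least 2-fold lower, with 3.87 CPM in the members and 12.3 CPM in non-cycling cells. Against non-cycling cells low in CRABP1, the log2 ratio of CDKN1C was -0.41 in place of -1.45. CDKN1A was at 0.60 and CDKN1B at -0.32.

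Of 24 counted genes of repair and the replication checkpoint, 20 were at least 2-fold higher in the members and none lower, with a median log2 ratio of 2.83. XRCC2, of homologous recombination, and EXO1, a nuclease of repair, had ratios of 4.07 and 3.98. BRCA1 had 60.4 CPM in the members and 3.20 CPM in non-cycling cells, and CHEK1, the checkpoint kinase, had 72.0 CPM in the members and 8.92 CPM in non-cycling cells. The mismatch repair gene MSH6 was at 1.72 and the checkpoint kinase gene ATR at 0.65. Of 12 cohesin genes, 3 were at least 2-fold higher: ESCO2, which acetylates cohesin during replication, at 4.69, CDCA5, which encodes sororin, at 4.04, and SMC1A at 1.53.

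Among 15 counted genes of histones and chromatin assembly, 12 were at least 2-fold higher and 1 at least 2-fold lower. CHAF1A and CHAF1B, of the assembly factor that works with PCNA, had log2 ratios of 4.06 and 3.00, and ASF1B was at 4.59 while its paralog ASF1A was at -0.06. UHRF1 and DNMT1, which copy DNA methylation, were at 4.38 and 2.07. H2AFZ had a UMI in all 260 members and 1461 CPM (1423 to 1500), against 479 CPM in non-cycling cells. HIST1H4C, a replication-dependent histone H4 gene, had 297 CPM in the members and 57.5 CPM in non-cycling cells. HIST1H2AC was the lower one, with 4.13 CPM in the members and 15.7 CPM in non-cycling cells. Most replication-dependent histone mRNAs lack the poly(A) tail that a 3′ kit primes from, so their level here is not that of the whole pool.

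**Figure D2:**
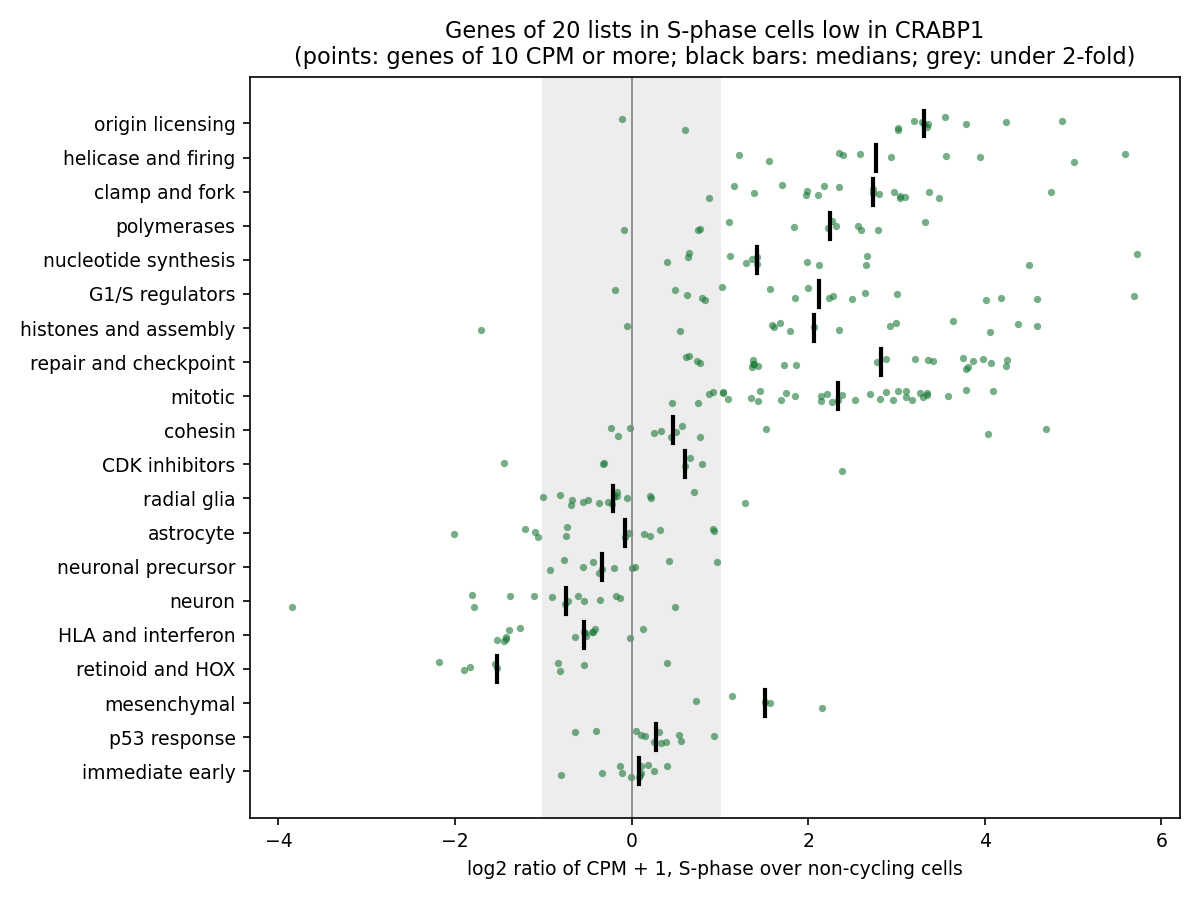
Log2 ratio of S-phase cells low in CRABP1 over non-cycling cells for the genes of 20 lists that reached 10 CPM in either group, with a black bar at each list's median and grey from -1 to 1. The replication, regulator, histone, repair and mitotic lists lie to the right, with medians from 1.42 for nucleotide synthesis to 3.31 for licensing, while cohesin has a median of 0.47 and CDK inhibitors of 0.60. The identity lists stay near 0 or to the left, except for the mesenchymal list.

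Mitotic genes were also higher in the members than in non-cycling cells, at levels far under those of mitotic cells. Of 35 counted over non-cycling cells, 31 were at least 2-fold higher. CDK1, which encodes the main mitotic kinase, had 106 CPM in the members and 22.0 CPM in non-cycling cells. HMGB2, a chromatin protein of dividing cells, had 339 CPM in the members and 32.6 CPM in non-cycling cells. CENPF, of the kinetochore, had 158 CPM in the members and 19.3 CPM in non-cycling cells. Over mitotic cells, 45 of the 47 listed mitotic genes outside the rule were at least 2-fold lower in the members and none higher, beside 277 of all 8983 genes lower (3.08%) and 109 higher (1.21%), together 4.30%. CCNB1 had 23.5 CPM in the members and 611 CPM in mitotic cells, and PLK1, the kinase of mitotic entry, had 2.58 CPM in the members and 229.9 CPM in mitotic cells. The rule required UBE2C and CDC20 to be absent from the members and present in the mitotic cells. The non-cycling cells were required to hold no UMI of MKI67, TOP2A or UBE2C. Of the 47 genes, 12 were under 10 CPM in both the members and the non-cycling cells. A gene counted only through the mitotic cells had to be lower in the members. These counts describe the groups and support nothing further.

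Against mitotic cells, 19 of 61 counted replication genes were at least 2-fold higher in the members and 2 at least 2-fold lower. Licensing genes made up 9 of the 19, out of 14 counted, and their summed level was 1409 CPM in the members and 584 CPM in mitotic cells. MCM6 had 129 CPM in the members and 21.1 CPM in mitotic cells, a 6.15-fold ratio (5.30 to 7.15), and MCM5 had 118 CPM in the members and 20.5 CPM in mitotic cells, a 5.75-fold ratio (4.93 to 6.71). CDC6 had 55.7 CPM in the members and 10.9 CPM in mitotic cells, a 5.11-fold ratio (4.11 to 6.36). PCNA stood closer, with 384 CPM in the members and 148 CPM in mitotic cells, a 2.59-fold ratio (2.42 to 2.77). E2F1 and CCNE2, which act at entry into S phase, had folds of the same order. E2F1 had 174 CPM in the members and 31.0 CPM in mitotic cells, a 5.59-fold ratio (4.94 to 6.34), and CCNE2 had 66.6 CPM in the members and 8.83 CPM in mitotic cells, a 7.53-fold ratio (6.02 to 9.47).

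Some other genes of replication were as high or higher in mitotic cells. RRM2 had 116 CPM in the members and 178 CPM in mitotic cells, and TK1, which salvages thymidine, had 26.3 CPM in the members and 27.1 CPM in mitotic cells. DBF4 and TICRR were the 2 listed genes at least 2-fold lower in the members, at log2 ratios of -1.73 and -1.33. SLBP, which binds histone mRNA stem loops, had 218 CPM in the members and 72.7 CPM in mitotic cells, a log2 ratio of 1.57. The histone transcripts themselves lay the other way, with HIST1H4C at 297 CPM in the members and 1280 CPM in mitotic cells, and H2AFX at 155 CPM in the members and 533 CPM in mitotic cells. MSH6 and EXO1 were 2 of 5 repair genes at least 2-fold higher in the members than in mitotic cells, at 1.72 and 1.13, and the other 19 counted were under 2-fold.

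**Figure D3:**
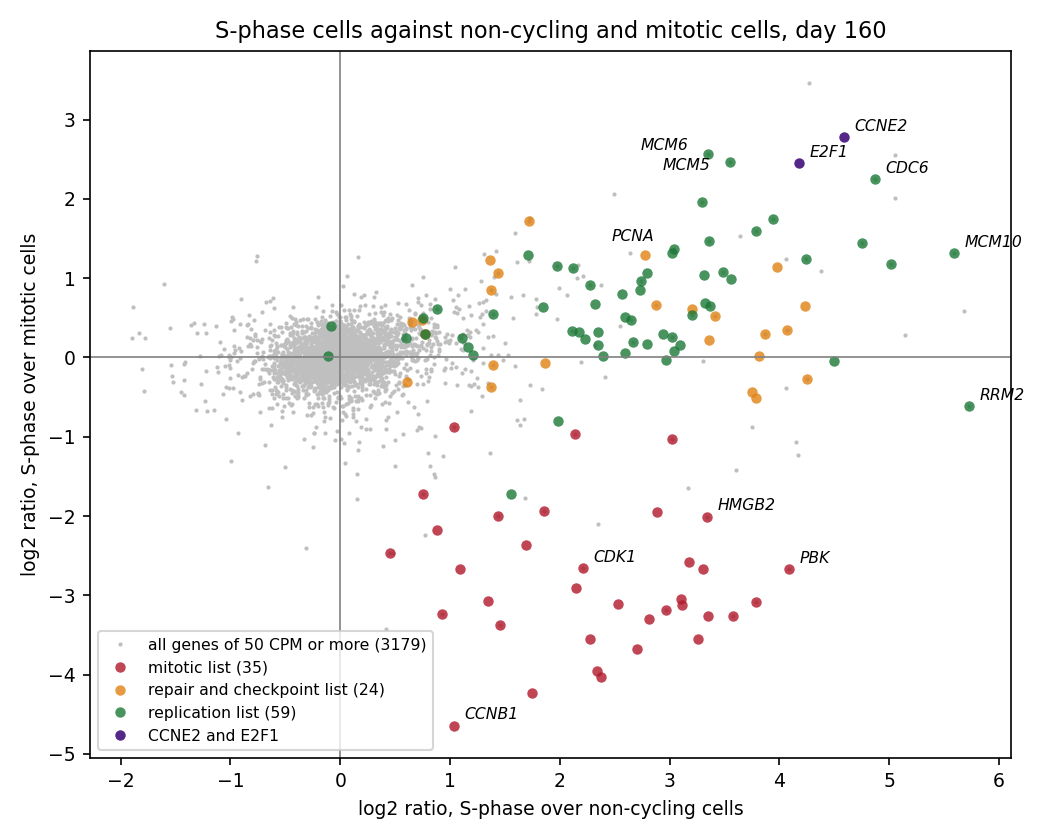
Each point is a gene: on the x axis the log2 ratio of S-phase cells low in CRABP1 over non-cycling cells, on the y axis that over mitotic cells, with the genes of the rule left out. Replication genes (green) lie at the right and mostly above 0 on the y axis, mitotic genes (red) at the right and below it, and repair genes (orange) mostly above 0 on the y axis, with a median of 0.40. The 2 axes share the members.

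The share of members with a UMI gave the same picture at equal depth. With each cell thinned to 5000 UMIs, which leaves out 5 members, 8 mitotic and 545 non-cycling cells, GINS2 had a UMI in 62.4% of members, 22.3% of mitotic cells and 5.59% of non-cycling cells. CCNE2 had a UMI in 35.3% of members, 4.33% of mitotic cells and 0.995% of non-cycling cells. For comparison, the same shares were taken in 95 cells with 5 or more UMIs of STMN2, a gene of neurons. Cycling or mixed cells were not removed from this group. SOX2 had a UMI in 91.6% of the 95 cells and TOP2A in 4.21%, so their shares are not a clean background of free RNA. In the 95 cells GINS2 had a UMI in 4.21% and CCNE2 in 2.11%. PCNA had a UMI in 82.0% of members and in 24.2% of these STMN2 cells. Unthinned, PCNA had a UMI in 95.4% of members (median 10514.5 UMIs) and in 29.5% of all 122 STMN2 cells (median 6289 UMIs).

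The members differed among themselves in TOP2A, a topoisomerase whose transcript is known to peak in G2 and mitosis, and in other late transcripts. The 91 members with a TOP2A UMI and the 169 without had medians of 10526 and 10509 UMIs. Licensing genes summed to 1480 CPM in the 91 and 1371 CPM in the 169. The ratio of the 91 over the 169 was 1.01 for CDC6 (0.756 to 1.35), 0.93 for MCM5 (0.761 to 1.13), 1.09 for MCM6 (0.904 to 1.31), 0.980 for GINS2 (0.835 to 1.15) and 1.04 for E2F1 (0.886 to 1.22). These 5 intervals hold 1, but the intervals cover counting error only and not the spread between cells, so no gene is called by them. Other genes of replication had intervals above 1, among them MCM7 at 1.18 (1.04 to 1.33), CDT1 at 1.26 (1.03 to 1.55), CDC45 at 1.45 (1.10 to 1.90), LIG1 at 1.41 (1.06 to 1.86), POLD1 at 1.67 (1.19 to 2.35) and POLA1 at 1.92 (1.35 to 2.74).

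Several late transcripts had larger ratios. MKI67, a marker of dividing cells that the members were not chosen by, had a ratio of 4.61 (3.26 to 6.61). HIST1H4C had 577 CPM in the 91 members with TOP2A and 146 CPM in the 169 without, a 3.95-fold ratio (3.49 to 4.48). Mitotic genes summed to 5297 CPM in the 91 and 3482 CPM in the 169. PBK, a kinase of dividing cells, had a ratio of 2.99 (2.27 to 3.97), BIRC5, which encodes survivin, of 2.71 (2.03 to 3.63), CCNA2, the cyclin of S phase and G2, of 2.37 (1.62 to 3.48) and CENPF of 1.85 (1.57 to 2.17). Within the replication and repair lists, RRM2 had a ratio of 1.84 (1.52 to 2.23), BRCA1 of 1.52 (1.16 to 1.98) and CLSPN of 1.47 (1.21 to 1.78). PCNA was at 1.11, with a lower bound just above 1 and an upper bound of 1.24, and SLBP was at 1.02 (0.882 to 1.18). TOP2A was used to define the non-cycling cells but not the members, and the split was made after the values were seen.

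**Figure D4:**
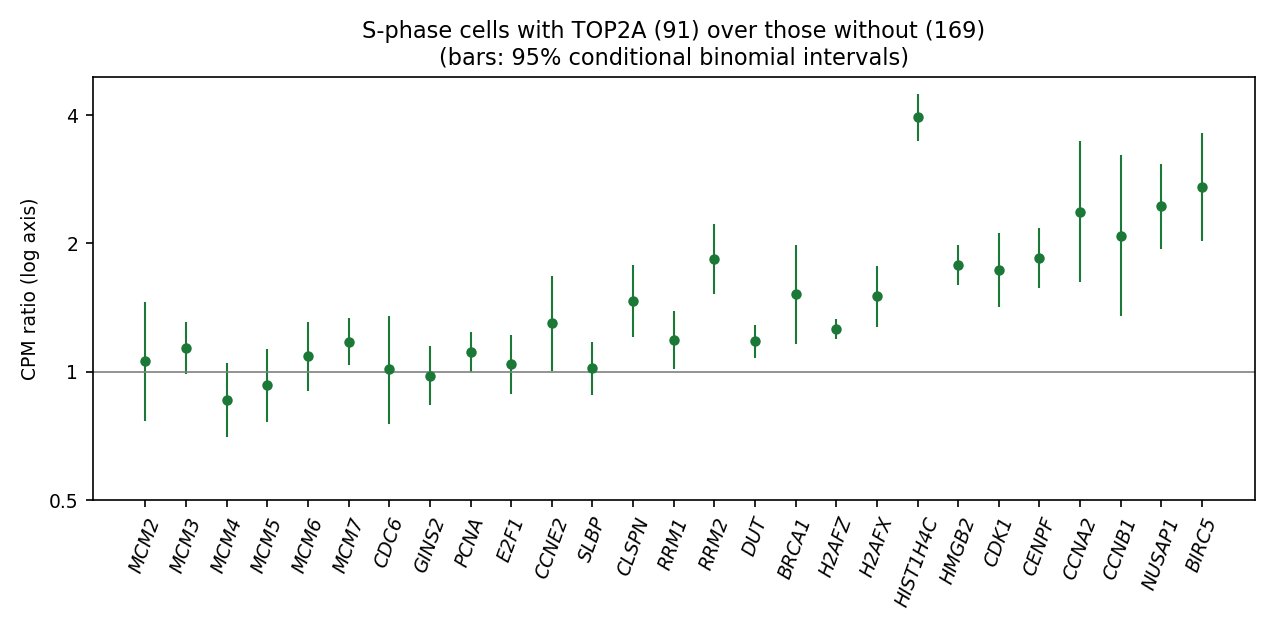
Ratio of CPM in the 91 members with a TOP2A UMI over the 169 without, on a log axis with 95% conditional binomial intervals, for 27 cell cycle genes. The MCM genes, CDC6, GINS2, E2F1 and SLBP lie near 1, HIST1H4C lies at 3.95, and the mitotic genes, at the right, lie between 1.73 (CDK1) and 2.71 (BIRC5).

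Markers of radial glia were present in the members, most of them lower than in non-cycling cells by less than 2-fold. Of 18 listed genes, 1 was at least 2-fold higher and none at least 2-fold lower over non-cycling cells. Of all counted genes 6.57% were past 2-fold, so nothing is read from that count. The log2 ratios had a median of -0.21, with 4 of the 18 above 0. The list summed to 11911 CPM in the members and 14627 CPM in non-cycling cells. SOX2, a factor of neural progenitors, had a UMI in 256 of the 260 members and 857 CPM, against 964 CPM in non-cycling cells. A member had a median of 10 SOX2 UMIs, with a highest count of 65. VIM, an intermediate filament gene, had 6371 CPM in the members and 7126 CPM in non-cycling cells. NES, another filament gene of progenitors, had 367 CPM in the members and 316 CPM in non-cycling cells, and the factor gene PAX6 had 129 CPM in the members and 135 CPM in non-cycling cells. HOPX, a marker of outer radial glia, had 239 CPM in the members and 419.6 CPM in non-cycling cells. The 1 higher gene was TNC, which encodes the matrix protein tenascin C, with 181 CPM in the members and 73.7 CPM in non-cycling cells, and 10 members held 77.9% of its UMIs.

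Markers of astrocytes were mixed. Of 13 counted over non-cycling cells, 4 were at least 2-fold lower and none at least 2-fold higher, beside 1.40% and 5.17% of all counted genes. The 13 log2 ratios had a median of -0.07. Over all 16 listed genes, with none left out for low levels, the median was -0.70 and 5 were at least 2-fold lower, and the list summed to 3015 CPM in the members and 4940 CPM in non-cycling cells. GFAP, the astrocyte filament gene, had 330 CPM in the members and 706 CPM in non-cycling cells, and 147 of 260 members had a UMI of it. CLU, which encodes the secreted chaperone clusterin, had 1387 CPM in the members and 2882 CPM in non-cycling cells. SPARCL1 had 38.2 CPM in the members and 89.7 CPM in non-cycling cells. APOE, of lipid transport, had 8.0 CPM in the members and 35.2 CPM in non-cycling cells. S100B was under 2-fold, with 125 CPM in the members and 209 CPM in non-cycling cells. The defining markers AQP4, AGT and ALDH1L1 were under 10 CPM in both groups.

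Of 11 counted genes of neuronal precursors, none passed 2-fold over non-cycling cells, where 6.57% of all counted genes did, so nothing is read from that count. DLX2, a factor of inhibitory neuron precursors, had a UMI in 224 members and 549.7 CPM, against 534 CPM in non-cycling cells. HES6 had 153 CPM in the members and 77.4 CPM in non-cycling cells. DLX5, which acts later, had 174 CPM in the members and 330 CPM in non-cycling cells. Of 14 counted neuronal genes, 5 were at least 2-fold lower and none higher, beside 1.40% and 5.17% of all counted genes. STMN2 had 2 UMIs in 1 member, or 0.516 CPM, against 20.7 CPM in non-cycling cells. SYT1, of synaptic vesicles, had 14.4 CPM in the members and 53 CPM in non-cycling cells, and DCX was under 2-fold with 258 CPM in the members and 393 CPM in non-cycling cells.

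Against the mitotic cells, none of 13 counted astrocyte genes and none of 11 precursor genes passed 2-fold, beside 4.30% of all counted genes, and nothing is read from these counts. GFAP had 330 CPM in the members and 287 CPM in mitotic cells, and DLX2 had 549.7 CPM in the members and 484 CPM in mitotic cells.

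Genes of antigen presentation were lower in the members than in non-cycling cells. Of 15 counted HLA and interferon genes, 6 were at least 2-fold lower, beside 1.40% of all counted genes. These 6 were HLA-DRA, HLA-DRB1, HLA-DPA1, HLA-DPB1, CD74 and their activator CIITA. HLA-DRA had 353 CPM in the members and 951 CPM in non-cycling cells, and 96 of 260 members had a UMI of it, with 57.7% of the UMIs in 10 cells. CD74, the chaperone of class II molecules, had 157 CPM in the members and 379 CPM in non-cycling cells. The class I genes HLA-B and HLA-C were lower by less, at log2 ratios of -0.41 and -0.52. Against mitotic cells none of 14 passed 2-fold, beside the same 4.30%, and HLA-DRA had 353 CPM in the members and 375 CPM in mitotic cells. With members taken at 1 or more UMIs of TYMS and PCLAF, the class II genes were under 2-fold, at -0.85 for HLA-DRA, -0.73 for HLA-DRB1, -0.76 for HLA-DPA1 and -0.78 for HLA-DPB1, GFAP was at -0.68 in place of -1.09, and CD74 was at -0.50 in place of -1.27. Against all other passing cells, CD74 was at -0.98 and GFAP at -0.74. Counts of HLA genes can be split between near-identical paralogs and are uncertain.

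Several HOXB genes, a family known to respond to retinoic acid, were also among the lowest over non-cycling cells, and for these the difference was smaller against non-cycling cells low in CRABP1. HOXB6 had 14.4 CPM in the members and 54.0 CPM in non-cycling cells. Against the 4283 non-cycling cells with fewer than 5 CRABP1 UMIs, the log2 ratio of HOXB6 was -0.34, in place of -1.83 against all non-cycling cells. In the same comparison that of HLA-DRA was -1.68 in place of -1.43, and that of GFAP -1.32 in place of -1.09. DLX6-AS1 had 229 CPM in the members and 849 CPM in non-cycling cells. SCGN, which encodes a calcium-binding protein, had 16.2 CPM in the members and 58.3 CPM in non-cycling cells, but against non-cycling cells within the members' depth its log2 ratio was -0.14 in place of -1.78. The protease inhibitor gene SERPINA3 had 27.3 CPM in the members and 85.3 CPM in non-cycling cells. DLX6-AS1 is an antisense gene, and without knowing that strand was used in counting, its reads cannot be told apart from those of its partner.

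In some lists no counted gene was past 2-fold in either direction over non-cycling cells: 7 genes of FGF and ERK signalling, 11 of Notch signalling, 12 immediate early genes, 14 of glycolysis and hypoxia and 12 of the p53 response. Of all counted genes 6.57% were past 2-fold, and nothing is read from these counts. FOS had 333 CPM in the members and 335 CPM in non-cycling cells, and NOTCH1 had 79.7 CPM in the members and 83.3 CPM in non-cycling cells. The glycolysis list had the highest median of these, at 0.44. No gene of the microglia or endothelial lists reached 10 CPM. AIF1, CX3CR1, P2RY12 and PTPRC had no UMI in the members, where the limit of 3 UMIs is 0.774 CPM. Of the oligodendrocyte list, SOX10, CSPG4, GPR17 and NKX2-2 had no UMI in the members. OLIG1 had 20.4 CPM in the members and 4.35 CPM in non-cycling cells, in 26 cells of which 10 held 75.9% of its UMIs. The list as a whole was not absent, and summed to 388 CPM in the members and 384 CPM in non-cycling cells. PDGFRA had a UMI in 87.3% of members and 77.3% of non-cycling cells. At equal depth these shares were 71.4% and 66.1%.

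Smooth-muscle-type contractile genes stood out in a small number of members. TAGLN, which encodes the actin-binding protein transgelin, had 539 CPM in the members and 120.2 CPM in non-cycling cells, and ACTA2, which encodes smooth muscle actin, had 453 CPM in the members and 152 CPM in non-cycling cells. These levels came from few cells: 10 members held 80% of the TAGLN UMIs and 75.2% of the ACTA2 UMIs. Of the 260 members, 19 (7.31%) had 10 or more TAGLN UMIs, with a median of 34191 UMIs per cell, against 35 of 654 mitotic cells (5.35%) and 76 of 5371 non-cycling cells (1.42%). These shares are at each cell's own depth. Without the 19 cells, the log2 ratio of ACTA2 was -1.18, in place of 1.57, and that of TAGLN -2.51. The 76 non-cycling cells were kept, so leaving out the 19 lowers TAGLN and any gene carried by the same cells, and the signs that follow are partly set by it. CCND1 was at -1.09 in place of 2.64, CAV1 at -0.90 in place of 1.99, ACTG2 at -1.89 in place of 2.49 and TNC at -1.03 in place of 1.29. C6orf15, a gene among the 12 highest ratios, had 501 of its 587 UMIs in 2 members and was at -1.99 in place of 4.27. Of the mesenchymal list, 5 of 9 genes were counted and 4 were at least 2-fold higher, beside 5.17% of all counted genes. The list summed to 1263 CPM in the members and 412 CPM in non-cycling cells. The defining markers COL3A1, LUM and DCN had no UMI in the members. COL1A1, another defining marker, had 161 UMIs in 10 members, and 2 of these cells held 133 of them. The part of the 19 cells in other results was not tested beyond leaving them out. That kept PCNA at 3.28, MCM3 at 3.55 and E2F1 at 4.44 on the log2 scale.

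Cells that carried a glial or a precursor marker differed in how many met the rule. Among 7342 passing cells with fewer than 5 CRABP1 UMIs and 5000 or more UMIs, 255 were members, or 3.47% (3.07 to 3.92). A cell was assigned a marker when it had 2 or more UMIs of it after thinning to 5000 UMIs. Members were 56 of 3135 GFAP cells, or 1.79% (1.35 to 2.31), and 164 of 3789 DLX2 cells, or 4.33% (3.70 to 5.03). In GFAP cells without a DLX2 UMI the share was 1.53% (1.03 to 2.19), in DLX2 cells without a GFAP UMI 4.38% (3.62 to 5.24), and in cells with both 2.81% (1.65 to 4.46). HLA-DRA cells had the share 1.40% (0.969 to 1.95) and HOPX cells 1.98% (1.42 to 2.68).

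The rule reads counts, and the classes differed in depth, with medians of 13802 UMIs for GFAP cells and 8664 for DLX2 cells. At equal depth, a cell was taken to have the S-phase pattern when it kept a UMI of both TYMS and PCLAF and none of UBE2C or CDC20 among 5000. Thinning can remove the UMIs of UBE2C and CDC20, so the pattern can take in cells that the rule turned away for these genes. It was found in 405 of the 7342 cells, while 255 of the 7342 were members by the rule. How many cells were both was not counted, and the part of cells turned away by the rule was not tested. The pattern held for 3.16% of GFAP cells (2.57 to 3.83), 7.18% of DLX2 cells (6.38 to 8.05) and 5.52% of all (5.0 to 6.06). The share was 5.42% in DLX5 cells (4.52 to 6.45). It was 2.51% in SCGN cells (1.21 to 4.57), a marker of a subset of inhibitory neurons. None of 80 STMN2 cells had the pattern, with an upper bound of 4.51% on the share. TAGLN cells had 6.85% members by the rule, at a median of 28075.5 UMIs, but 5.14% (2.90 to 8.33) at equal depth. Mitotic cells by UMIs as sequenced were 5.20% of GFAP cells and 10.2% of DLX2 cells.

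**Figure D5:**
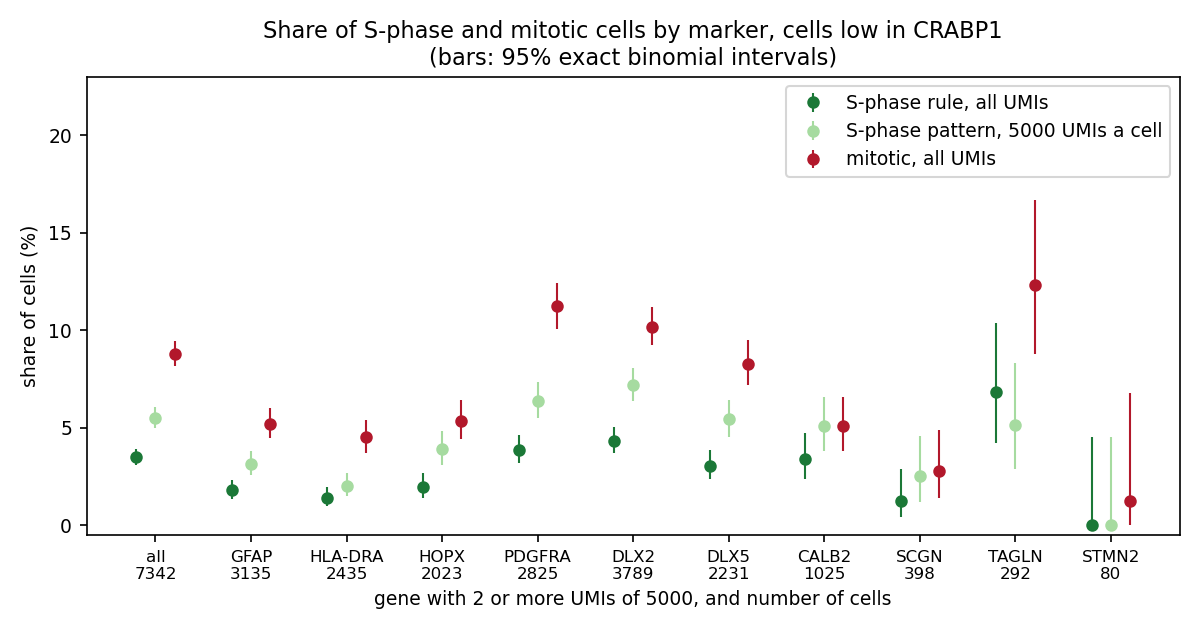
Share of cells in percent, with 95% exact binomial intervals, among cells low in CRABP1 that carried each marker; the number of cells stands under each name. From left to right are S-phase members, cells with the S-phase pattern at 5000 UMIs, and mitotic cells. GFAP, HLA-DRA and HOPX cells lie under the share of all cells in each of the 3 measures, and DLX2 cells above it at equal depth.

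The 53 S-phase cells with 5 or more CRABP1 UMIs were close to the members in replication genes and apart from them in identity genes. Of 62 counted replication genes, 1 was at least 2-fold higher in the members and none lower, with a median log2 ratio of -0.26, beside 426 of 9240 genes at least 2-fold higher (4.61%) and 298 lower (3.23%), together 7.84%. PCNA had 384 CPM in the members and 489 CPM in CRABP1-high cells, and E2F1 had 174 CPM in the members and 257 CPM in CRABP1-high cells. Of the regulators of entry into S phase, CCNE1, CDK6 and E2F7 were at least 2-fold lower in the members, at -1.12, -1.27 and -1.01, and CCND1 was at least 2-fold higher, at 1.63, out of 19 counted. One UMI in the CRABP1-high group was worth 1.43 CPM, so counts of low genes vary most there.

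Among identity genes, 8 of 9 counted genes of the retinoid and HOX list were at least 2-fold lower in the members. HOXB6 had 14.4 CPM in the members and 120.5 CPM in CRABP1-high cells, and HOXB8 had 5.42 CPM in the members and 83.2 CPM in CRABP1-high cells. Of 13 counted precursor genes, 6 were at least 2-fold lower. HES6 had 153 CPM in the members and 525 CPM in CRABP1-high cells, and DLL3, a Notch ligand, had 24.8 CPM in the members and 86.0 CPM in CRABP1-high cells. By contrast, 5 of 18 radial glia genes and 6 of 14 HLA and interferon genes were at least 2-fold higher in the members; 1 of the 14, IFITM3, was at least 2-fold lower, at -1.46. HOPX had 239 CPM in the members and 74.6 CPM in CRABP1-high cells, and FABP7, a fatty acid binding protein gene of radial glia, had 1560 CPM in the members and 614 CPM in CRABP1-high cells. GFAP had 330 CPM in the members and 102 CPM in CRABP1-high cells, and CD74 had 157 CPM in the members and 11.5 CPM in CRABP1-high cells. CRABP1 alone set these groups apart by the rule, and the other genes were measured in the same cells.

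At day 160 and day 220, cells that met the rule made up 2.61% and 1.72% (0.788 to 3.24; 9 of 524) of passing cells. The median depth was 10457.5 UMIs per passing cell at day 160 and 46438 at day 220. With every cell thinned to 10000 UMIs before the rule was applied, they were 127 of 5274 cells at day 160 (2.41%, 2.01 to 2.86) and 4 of 482 at day 220 (0.830%, 0.227 to 2.11). The 9 cells at day 220 had a median of 46702 UMIs, and 1 UMI in them was worth 2.26 CPM. Of the replication list, 13 genes reached 50 CPM in these or in the 256 non-cycling cells of that day, and 10 of them were at least 2-fold higher in the S-phase cells and none lower, beside 143 of 4102 genes higher (3.49%) and 100 lower (2.44%). A gene that reached 50 CPM only through the 9 cells had to be higher there, and the rule chose these cells, so the count supports nothing. MCM3 had 63.2 CPM in the 9 cells and 13.5 CPM in non-cycling cells of day 220, and PCNA had 47.4 CPM in the 9 cells and 22.1 CPM in non-cycling cells of day 220. E2F1 had 45.2 CPM in the 9 cells, from 20 UMIs, against 3.72 CPM in non-cycling cells of day 220. No day 220 cell met the rule with 5 or more CRABP1 UMIs. With 9 cells from 1 library, differences from day 160 in these levels were not tested. The deposited names of the libraries differ in a prefix whose meaning is not given, so time, culture and library cannot be told apart.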

How the data were processed

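Each library was a 10x Genomics 3′ library of Accutase-dissociated cells, per the labels' protocols. The authors deposited unnormalized counts of UMIs for every gene in every barcode, and per the file headers these came from Cell Ranger version 7.0.1. The submitters' processing notes name Cell Ranger 7, Seurat 4 and the build hg38. Whether introns and strand were used, which annotation, and how barcodes were selected is not stated in what was used here. The filters left 128847264 UMIs in 9972 cells at day 160 and 25981066 UMIs in 524 cells at day 220. Counts were summed over the cells of a group and scaled to CPM; a gene was counted at 10 CPM or more in at least 1 of 2 groups, with the 7 genes of the rules left out, and called at 2-fold on log2(CPM + 1). With 1 library per time point there was no test. Levels have exact Poisson, ratios exact conditional binomial and shares Clopper-Pearson intervals at 95%, and a count of 0 allows up to 3. Scrublet ran in scanpy 1.11.5 at an expected rate of 0.06. Promoters came from RefSeq's GRCh38.p14. Tools were Python 3.11.15, numpy 2.4.6, scipy 1.17.1, pandas 2.3.3 and matplotlib 3.10.9. The comparison was checked on simulated counts.

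The members, the gene lists and the alternatives were chosen with earlier results of these data known. Named genes were members of the cell cycle lists by role, the 12 highest and 12 lowest ratios at 50 CPM or more, and for each other list the members of highest level or largest ratio. ORC3, FOS and the other genes under 2-fold were named under the same rule or to complete a family after their values were seen. Alternatives were thinning, matched depth, the mean over cells, totals without mitochondrial and ribosomal genes, filters of 50 CPM and of none, doublets left out, a 10% mitochondrial limit, other thresholds of the rule and other compared cells. Leaving out the cells with 10 or more TAGLN UMIs was added after the data were seen. Results for some genes are not reported here.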

Additional observations from a re-analysis of the deposited data

Results flagged for a closer look

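In the day 220 library, which the main comparisons do not use, 9 cells met the S-phase rule, above the 3 cells that a count of 0 would allow. They came from 524 passing cells.

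ZNF704, a zinc finger gene, lay in opposite directions at the 2 times, and the difference was not tested. At day 160 it had 53.9 CPM in S-phase cells and 21.8 CPM in non-cycling cells, a log2 ratio of 1.27. At day 220 it had 27.1 CPM in S-phase cells and 71.7 CPM in non-cycling cells, a log2 ratio of -1.37 that rests on 12 UMIs in 6 cells.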

How the results depend on the processing

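No paired analysis was possible because each time point had 1 library and no result came from a test. The 260 members became 47 at a mitochondrial limit of 10%, 442 with TYMS and PCLAF of 1 or more, and 127 after thinning to 10000 UMIs, which leaves out 4698 shallower cells (127 of 5274, 2.41%, against 2.61%). The 464 genes higher than in non-cycling cells became 162 at 50 CPM, 723 with no expression filter, 728 at the 10% limit and 158 against all other passing cells. The 126 lower genes became 284 after thinning to 5000 UMIs, 219 as the mean over cells, 45 at 50 CPM, 308 with no filter, 633 at the 10% limit, 75 at 1 UMI or more, 192 with CRABP1 at 0 and 77 against all other passing cells. The 53 higher replication genes became 25 at 50 CPM, where 29 were counted, and the 19 higher than in mitotic cells became 8 at 1 UMI or more. The 724 genes that differed from CRABP1-high cells became 1544 after thinning, 127 at 50 CPM, 2937 with no filter, 2619 at the 10% limit, which left 14 CRABP1-high cells, and 295 at 1 UMI or more. The other alternatives kept each count within 1.5 times.

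Of 64 genes followed, 46 were past 2-fold. In all 12 settings, 24 of these stayed past 2-fold in size, counted in either direction, and 10 changed sign in at least 1. CCND1 and TAGLN are in both counts, since each went from at least 2-fold higher to at least 2-fold lower in 1 setting. Against all other passing cells, which include the mitotic ones, CDK1 was at -0.43 and CENPF at -0.83. OLIG1 was at -0.55 at the 10% limit. With TYMS and PCLAF of 3 or more, ACTG2 was at -0.37 and TNC at -0.10. Without the cells of 10 or more TAGLN UMIs, ACTA2 was at -1.18, ACTG2 -1.89, C6orf15 -1.99, CAV1 -0.90, CCND1 -1.09, TAGLN -2.51 and TNC -1.03, signs that this removal partly sets. Apart from the alternatives whose construction shows it, the cause was not tested.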
